A study of Mus musculus with 6 samples.

Results

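The decapping and P-body factors are 9 genes, Dcp2, Dcp1a, Dcp1b, Edc3, Edc4, Ddx6, Lsm14a, Lsm14b and Xrn1, taken by symbol from the 56734 gene symbols of the count table. All 9 were found, and all 9 had enough counts to be tested among 17718 genes. The libraries hold poly(A) RNA of B16-OVA, a mouse melanoma line that makes chicken ovalbumin. The 2 groups were WT cells, whose sample titles read gNC, and Ythdf2-KO cells, whose titles read gY2 (the knockout below), with 3 libraries each, both grown in the same serum-containing medium with no treatment named. The labels name neither clones nor separate cultures, so p-values measure the spread between these libraries, which may be technical.

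Removal of the 5′ cap commits an mRNA to decay from that end. DCP2 cuts the cap, DCP1 proteins activate it, EDC3 and EDC4 hold the enzyme and its activators together, and XRN1 then digests the uncapped RNA. DDX6, a DEAD-box helicase, and the LSM14 proteins repress translation and are building blocks of P-bodies, the cytoplasmic granules in which these proteins gather. YTHDF2, the reader of N6-methyladenosine (m6A) that was knocked out, is known to recruit mRNA decay enzymes, deadenylases among them, to its targets.

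The sequences of the gene starts of Dcp1b and Dcp1a are shown because these paralogs differed most in level and in response. The 250 bases before each start come from RefSeq on GRCm38.p6, plus strand, 5′ to 3′, at chr6:119175003-119175252 for Dcp1b and chr14:30479315-30479564 for Dcp1a. Capitals mark CG dinucleotides.

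Dcp1b: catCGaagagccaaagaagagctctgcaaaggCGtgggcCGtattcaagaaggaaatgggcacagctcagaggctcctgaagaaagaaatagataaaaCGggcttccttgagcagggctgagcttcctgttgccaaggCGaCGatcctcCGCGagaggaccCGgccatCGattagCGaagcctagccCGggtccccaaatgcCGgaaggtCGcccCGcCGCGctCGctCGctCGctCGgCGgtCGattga
Dcp1a: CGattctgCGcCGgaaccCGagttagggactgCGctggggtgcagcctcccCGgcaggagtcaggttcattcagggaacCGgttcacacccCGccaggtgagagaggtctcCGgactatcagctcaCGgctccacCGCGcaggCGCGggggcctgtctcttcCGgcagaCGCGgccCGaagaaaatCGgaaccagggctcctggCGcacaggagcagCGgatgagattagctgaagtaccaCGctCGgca

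Each window held 23 CG dinucleotides, against a median of 6 in 32851 mouse promoter windows of the same length, and GC content was 59.6% for Dcp1b and 65.2% for Dcp1a. Promoter windows were matched for 7 of the 9 genes. On either strand, CACGTG (an E-box, found in 6.02% of all windows), CATGTG (the core of the M-box of pigment genes, 12.3%), TGACTCA (the AP-1 element, 4.46%) and TATAAA (a core promoter element, 12.4%) were in none of the 7. CCAAT was in the windows of Edc4 and Lsm14b and in 33.8% of all windows. These matches describe letters only.

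Knockout and WT libraries were compared to learn what the tumor cells' own mRNAs do without the m6A reader; values follow the order of replicates 1 to 3 throughout. Ythdf2 itself stood at 124, 124 and 125 CPM (a gene's counts relative to the library's total, scaled with TMM factors) in WT and 100.1, 101 and 104 CPM in the knockout, 0.816 times the WT level. It was lower in 3 of 3 libraries, and since the labels do not give the site of the edit, this mRNA level does not measure loss of the protein. Library totals ran from 55660473 to 69497273 counts. Summed levels of 7 melanocyte markers, the lineage of the label, were 237 to 241 CPM in WT and 1401 to 1431 CPM in the knockout, with none at 0; Tyr rose from 9.50 to 72.7 CPM, Dct from 47.9 to 299 CPM and Mlana from 10.7 to 71.1 CPM. Those of 6 leukocyte markers stayed between 0.0972 and 1.36 CPM, and the highest sum came from 74 counts of Ptprc in knockout replicate 3. Sums of 6 endothelial and epithelial markers were 2.61 to 2.69 CPM in WT and 2.12 to 2.28 CPM in the knockout. These ranges did not overlap. Cdh5, the largest part of each sum with 379 counts in WT and 272 in the knockout, was called lower (edgeR adjusted p = 0.0134). Pecam1, with 71 and 88 counts, did not pass. Kdr was lower (34 and 10 counts) and Krt8 higher (17 and 56 counts) in the knockout. Neither overlapped between genotypes, and neither was tested. The markers on this list thus did not all move the same way. The 3 fibroblast markers went different ways: Dcn fell from 487 to 41.5 CPM and Lum from 32.6 to 12.7 CPM, while Pdgfra rose from 269 to 407 CPM. Mitochondrial genes took 1.08 to 1.33% of counts in WT and 1.57 to 1.82% in the knockout. In these bulk libraries fewer cells with a transcript and less of it per cell cannot be told apart. The part of these shifts in the members' results was not tested.

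Of the 9 members, 2 rose (Dcp1b and Ddx6), 4 fell (Dcp2, Edc3, Edc4 and Lsm14b) and 3 (Dcp1a, Lsm14a and Xrn1) did not pass at an adjusted p under 0.05 by edgeR's quasi-likelihood test. The test called 49.9% of all genes, 24.1% higher and 25.8% lower, so the members' 6 of 9 is not a result about this set. The split moved with the scaling: 48.3% of all calls were higher with TMM factors, 59.2% after upper-quartile scaling and 37.8% with length and GC offsets. In the same order 4, 2 and 7 of the 9 members were called lower, beside 25.8%, 20.3% and 31.6% of all genes. Among the 4969 genes whose mean CPM lay within the range of the 8 abundant members, 71.3% were called. In 7 of 9 members every library of one genotype lay above every library of the other, against 55.9% of all genes tested. The members' median log2 fold change was -0.062, beside -0.0053 over all genes. With TMM factors, every member apart from Dcp1b differed by less than 1.15-fold. With length and GC offsets Edc3, Edc4, Dcp2 and Lsm14b exceeded that, at log2 fold changes of -0.332, -0.245, -0.210 and -0.203. The 9 mRNAs together summed to 961 to 967 CPM in WT and to 944 to 966 CPM in the knockout, ranges that overlap.

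**Figure D1:**
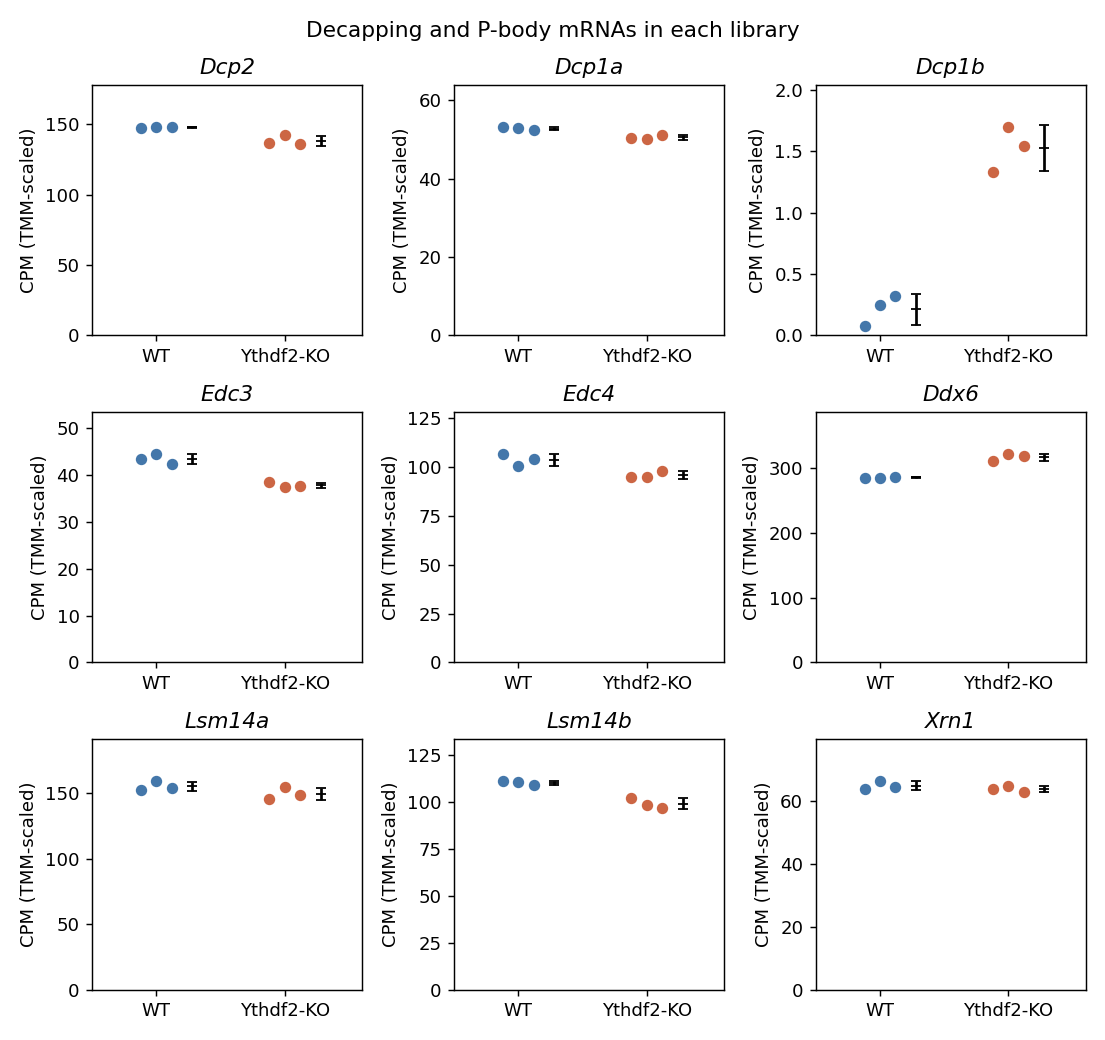
TMM-scaled CPM of each member (vertical axis from 0, own scale per panel) in the 3 WT and 3 Ythdf2-KO libraries, 1 point a library, with the mean and SD beside them. Dcp1b lies at 0.321 CPM or less in WT and at 1.33 CPM or more in Ythdf2-KO, while the other 8 members shift by small amounts.

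Dcp2, the gene of the decapping enzyme, was slightly lower in the knockout. It stood at 147, 148 and 148 CPM in WT, against 136.5, 142 and 136 CPM in the knockout. All 3 knockout libraries lay below all 3 WT libraries. The log2 fold change was -0.095 ± 0.025 (SE, 3 libraries a side; edgeR adjusted p = 0.00134), a level 0.936 times that of WT. With upper-quartile scaling Dcp2 did not pass (log2 fold change -0.041, edgeR adjusted p = 0.166), and with length and GC offsets it was -0.21 (edgeR adjusted p = 9.39e-09).

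Dcp1a, which encodes the abundant one of the 2 DCP1 activators here, was at 53.3, 52.8 and 52.3 CPM in WT, against 50.5, 50.02 and 51.2 CPM in the knockout. The genotypes' libraries did not overlap, and the knockout's were the lower ones. The log2 fold change of -0.062 ± 0.035 did not pass (SE, 3 libraries a side; edgeR adjusted p = 0.143), and its 95% interval spans 0.912 to 1.01 times the WT level. With length and GC offsets, which model counts by those transcript properties, it passed, at -0.18 (edgeR adjusted p = 4.16e-05).

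Dcp1b, the paralog that encodes the other DCP1 activator, was barely detected in WT and rose in the knockout. It had 4, 16 and 22 counts in WT and 91, 105 and 107 counts in the knockout, which is 0.0720, 0.244 and 0.321 CPM against 1.33, 1.70 and 1.54 CPM. The lowest knockout library lay well above the highest WT library, but the WT libraries themselves spread widely. The fitted log2 fold change was 2.79 ± 0.31 (SE, 3 libraries a side; edgeR adjusted p = 2.15e-10), or 6.91-fold with a 95% interval of 4.48 to 10.7. Ranked by size of log2 fold change it was number 282 of the 17718 genes tested. The ratio of summed counts, 303 over 42 after scaling, was 6.86, with an exact binomial 95% interval of 4.96 to 9.71 that covers counting error only. Leaving out any one library gave log2 fold changes from 2.42 (without WT replicate 1) to 3.20 (without WT replicate 3), all called; without knockout replicate 3, the library with the Ptprc counts, it was 2.78.

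In GENCODE M21 (GRCm38) Dcp1b overlaps a gene on the opposite strand, Cacna1c, which encodes a calcium channel subunit, with no shared exon bases, and Dcp1a overlaps the related channel gene Cacna1d in the same way. Cacna1c was also low and higher in the knockout, at 18, 22 and 27 counts in WT and 51, 61 and 57 counts in the knockout, a log2 fold change of 1.27 ± 0.31 (SE, 3 libraries a side; edgeR adjusted p = 5.52e-04). The strand setting of the counting was not stated, so reads from the 2 strands cannot be told apart. The nearest coding genes on either side, Ankrd26 and Cacna2d4, had log2 fold changes of 0.0067 and 0.15 and did not pass. Cacna1d had 6 counts over the WT libraries and 13 over the knockout libraries, against 10004 and 10085 for Dcp1a.

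Per kilobase of transcript, Dcp1b made up 0.227, 0.772 and 1.02% of the DCP1 mRNA (Dcp1a plus Dcp1b) in WT and 4.25, 5.41 and 4.83% in the knockout. This ratio within a library needs no scaling between libraries. The share was higher in 3 of 3 knockout libraries, by 4.16 percentage points on average (exact permutation test, two-sided, p = 0.10, the smallest that 3 against 3 allows). Dcp1a remained the main DCP1 mRNA in all 6 libraries.

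**Figure D2:**
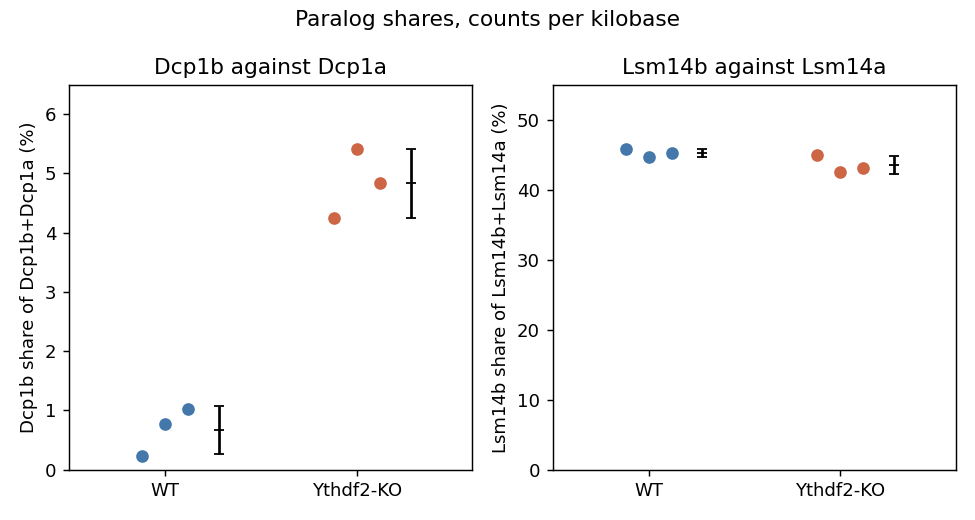
Share of Dcp1b in Dcp1a plus Dcp1b (left) and of Lsm14b in Lsm14a plus Lsm14b (right), in percent of counts per kilobase, 1 point a library with the mean and SD beside. The Dcp1b share is at most 1.02% in WT and at least 4.25% in Ythdf2-KO, while the Lsm14b shares overlap, at 44.7 to 45.9% and 42.6 to 44.9%.

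The scaffold genes were both lower. Edc3, whose product bridges DCP2 and DDX6, stood at 43.5, 44.6 and 42.4 CPM in WT, against 38.5, 37.4 and 37.7 CPM in the knockout. With a log2 fold change of -0.20 ± 0.039 (SE, 3 libraries a side; edgeR adjusted p = 2.91e-05), or 0.871 times WT, it fell more than the other 3 members that fell, though differences between members were not tested. With length and GC offsets it was -0.33 (edgeR adjusted p = 4.56e-10). Edc3 shares 1284 exon bases with Clk3, a kinase gene on the opposite strand in the same annotation. As the strand setting was not stated, how reads over these bases were counted is not known. Clk3 had 36.4 ± 2.21 CPM in WT, against 34.9 ± 0.896 CPM in the knockout (SD, n = 3) and did not pass (edgeR adjusted p = 0.277).

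Edc4, which encodes the large scaffold of the decapping complex, was at 107, 100.4 and 104 CPM in WT, against 94.7, 94.7 and 98.1 CPM in the knockout. The groups did not overlap. The log2 fold change was -0.11 ± 0.028 (SE, 3 libraries a side; edgeR adjusted p = 7.41e-04), a level 0.924 times that of WT. With upper-quartile scaling Edc4 did not pass (log2 fold change -0.060, edgeR adjusted p = 0.0680), and with length and GC offsets it was -0.25 (edgeR adjusted p = 9.64e-10).

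Ddx6 was the most abundant member by CPM and the only abundant one that rose. It stood at 284, 285 and 286 CPM in WT, against 311, 322 and 317 CPM in the knockout. The WT libraries lay close together, and every knockout library was above them. The log2 fold change was 0.15 ± 0.022 (SE, 3 libraries a side; edgeR adjusted p = 8.84e-08), or 1.11-fold with a 95% interval of 1.08 to 1.14. Its size ran from 0.076 with length and GC offsets (edgeR adjusted p = 0.0176) to 0.20 with upper-quartile scaling. E030022I16Rik and Gm47234, unclassified transcripts within Ddx6 on its own strand, were also called higher, at low levels (log2 fold changes 0.87 and 1.49). Of the same kind, Gm44567 within Lsm14a (0.049) and Gm38375 within Xrn1 (0.43) did not pass. Every knockout library of Gm38375 lay above every WT library. All of these were named after their values were seen.

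Of the LSM14 paralogs, whose products bind DDX6, Lsm14b was called lower and Lsm14a did not pass. Lsm14a was at 153, 159 and 154 CPM in WT, against 146, 154 and 148 CPM in the knockout, ranges that overlap. Its log2 fold change of -0.055 ± 0.026 did not pass (SE, 3 libraries a side; edgeR adjusted p = 0.0738), and the unadjusted 95% interval spans 0.929 to 0.998 times WT. It passed without knockout replicate 2 (-0.078, edgeR adjusted p = 0.0217) and with length and GC offsets (-0.076, edgeR adjusted p = 0.0335).

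Lsm14b was at 111, 111 and 109 CPM in WT, against 102, 98.7 and 97.0 CPM in the knockout, with no overlap. It fell by 0.15 ± 0.028 on the log2 scale (SE, 3 libraries a side; edgeR adjusted p = 6.52e-06), to 0.899 times WT. With upper-quartile scaling it was -0.099 (edgeR adjusted p = 0.00209). Its share of the 2 LSM14 mRNAs per kilobase was 45.3 ± 0.579% in WT and 43.6 ± 1.23% in the knockout (SD, n = 3), and the libraries overlapped (exact permutation test, two-sided, p = 0.20, in a design that cannot go below 0.10).

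Xrn1, the gene of the exonuclease that follows decapping, showed no difference that the test could detect. It stood at 63.9, 66.5 and 64.6 CPM in WT, against 64.05, 64.8 and 63.05 CPM in the knockout, overlapping ranges. The log2 fold change of -0.023 ± 0.032 (SE, 3 libraries a side; edgeR adjusted p = 0.600) has a 95% interval of 0.941 to 1.03 times WT. Its sign turned to 0.031 with upper-quartile scaling, and with length and GC offsets Xrn1 passed as lower, at -0.085 (edgeR adjusted p = 0.0406).

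**Figure D3:**
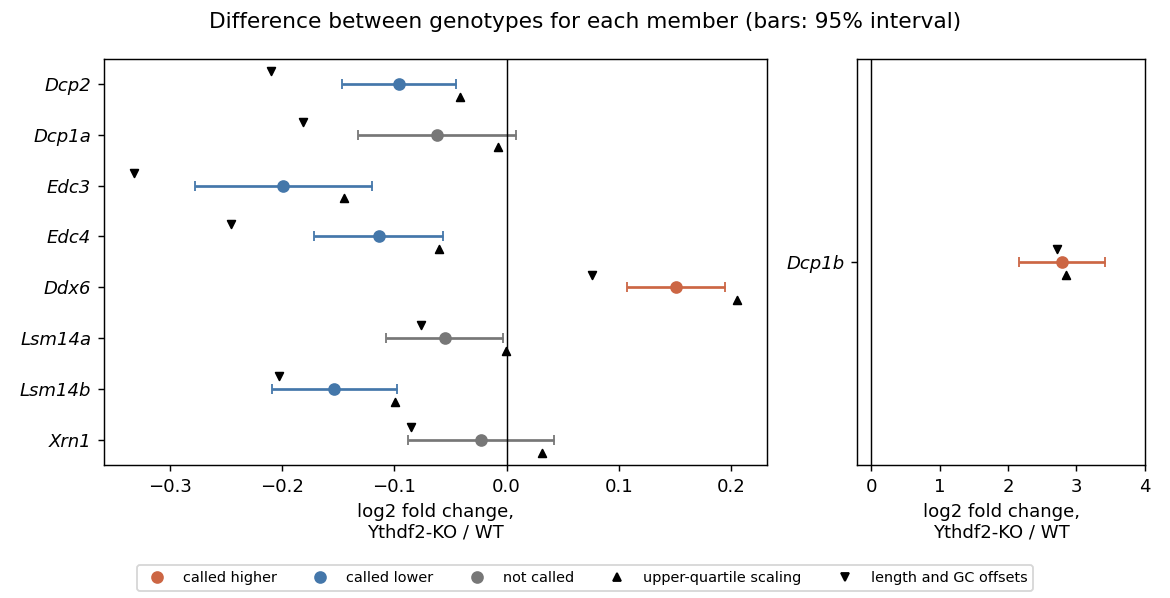
Log2 fold change of each member, Ythdf2-KO over WT, with its 95% interval (circles and bars), and the same value under upper-quartile scaling (up triangles) and with length and GC offsets (down triangles); Dcp1b has its own axis. Every member except Xrn1 keeps its side of 0 under both, though Lsm14a and Dcp1a come close to 0 with upper-quartile scaling. Ddx6, Dcp1b, Edc3 and Lsm14b also keep their call, while the triangles of Xrn1 lie on either side of 0.

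Levels of different genes were compared per kilobase of the coding transcript with the longest reading frame in GENCODE M21. In WT the order was Lsm14a (52.8 CPM per kb), Ddx6 (47.0), Lsm14b (43.6), Edc4 (21.7), Dcp2 (17.2), Xrn1 (11.8), Dcp1a (9.47), Edc3 (7.62) and Dcp1b (0.0641), and no neighbours in this order overlapped between libraries. In Ythdf2-KO, Ddx6 at 52.2 ± 0.897 and Lsm14a at 50.8 ± 1.52 CPM per kb (SD, n = 3) changed places and overlapped, and the rest of the order was the same. The DEAD-box helicase and its LSM14 partners exceeded the decapping enzyme and its activators in mRNA per length. The order depends on the transcript chosen: over the union of all annotated exons, Lsm14b came first in WT (38.2 CPM per kb) and Xrn1 fell to second lowest (3.50 CPM per kb), since its annotated exons add up to 18585 bases against 5499 in the transcript used.

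GGACT, the commonest form of the sequence in which m6A is laid down, was counted in these transcripts. Dcp1a had 1 match, Dcp1b 2, Lsm14a 2, Xrn1 3, Lsm14b 4, Edc4 5, Dcp2 6, Edc3 6 and Ddx6 7. Per kilobase this ran from 0.179 in Dcp1a to 1.58 in Lsm14b, with 1.15 in Ddx6, beside a median of 1.05 over 13022 tested coding genes, of which 91.4% held at least 1 match. Members with long 3′ UTRs were Dcp2 (7240 bases), Ddx6 (4250), Edc3 (4004) and Dcp1a (3757), against a median of 920.5. A match shows neither methylation nor binding, neither of which was measured here. The 3′ UTR matches of the DCP1 paralogs and of Ddx6 are shown with their flanks because Dcp1b and Ddx6 rose and Dcp1a did not pass. They come from GENCODE M21 transcripts, 5′ to 3′, with GGACT in capitals, and Ddx6 a to d are in order from the stop codon.

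Dcp1b: gaagcaatgaGGACTttaccaaagt
Dcp1a: ggctccgtccGGACTgtccacagct
Ddx6 a: gccggaaggtGGACTagtgatggca
Ddx6 b: tgccaaccttGGACTgctctgccag
Ddx6 c: aaatttatgtGGACTttggtgagtt
Ddx6 d: agcctggcctGGACTctgcccctcc

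The first bases of these matches lay 454 bases after the stop codon in Dcp1b, 2632 in Dcp1a and 609, 2425, 3569 and 3736 in Ddx6. Neither the number nor the density of matches separated the members that rose from those that fell, which held 4 to 6 matches against 2 and 7 in Dcp1b and Ddx6.

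The genes most like the 2 members with the smallest adjusted p were sought among 7674 genes with a mean of at least 20 CPM, by Pearson's r of log2(CPM + 0.5) over the 6 libraries. For Dcp1b they were Taf1, Crebrf and Sp1, with r from 0.998 to 0.999. For Ddx6 they were Tmem50a, Mitf and Cbx5, with r from 0.998 to 0.999; Mitf, the melanocyte transcription factor gene, went from 42.9 to 54.4 CPM. The 6 points share the genotype difference, so r mainly follows the gap between the groups.

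Other genes of the pathway were taken from 6 lists of 65 genes, of which 63 were tested; Ago4 and Exosc6 had no count in any library. Of the 63, 16 were higher and 18 lower in the knockout by edgeR's test, together 54.0%, beside the 49.9% of all genes. Their median was -0.017 on the log2 scale. The 49.9% covers genes of every level, and among the 4969 genes with a mean of 40.7 to 301 CPM 71.3% were called. Some of the 63 lay outside that range, and their share was not tested against genes of matched level. By list, the share called ran from 46.2% to 85.7%, the last in microRNA silencing. Over all genes 24.1% were higher and 25.8% lower. No set test was run, so the counts per list below are descriptions and not results about the lists. With upper-quartile scaling the counts were 20 and 12, beside 29.5% higher and 20.3% lower over all genes. With length and GC offsets they were 11 and 33, beside 19.2% higher and 31.6% lower over all genes. Without WT replicate 1, 22.4% of all genes were higher and 22.7% lower. Without WT replicate 2 the shares were 23.4% and 23.1%, and without knockout replicate 2 they were 21.8% and 23.2%.

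Of 8 genes of the LSM1-to-LSM7 ring and its partner PAT1, which bind the ends of deadenylated mRNAs and stimulate decapping, none was higher and 4 were lower. The list's median was -0.11 on the log2 scale. Lsm4 fell from 47.9 ± 1.28 to 40.9 ± 1.07 CPM (SD, n = 3; edgeR adjusted p = 1.59e-06) and Lsm6 from 50.2 ± 3.80 to 43.7 ± 1.48 CPM (edgeR adjusted p = 1.68e-04). Lsm1 and Lsm3 fell as well, but neither passed under upper-quartile scaling (edgeR adjusted p = 0.132 and 0.125). Patl1, which encodes PAT1, had a log2 fold change of -0.0051 and did not pass. The list had 2 lower with upper-quartile scaling and also without knockout replicate 2.

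Among 13 decapping co-factors and translational repressors of P-bodies, 4 were higher and 2 lower, with a median of 0.048; with length and GC offsets 3 were higher and 6 lower. The paralogs Pnrc1 and Pnrc2, of which PNRC2 is known to bind DCP1A, went in opposite directions. Pnrc1 fell from 50.2 ± 0.893 to 39.5 ± 1.52 CPM, and Pnrc2 rose from 21.5 ± 0.275 to 27.1 ± 0.923 CPM (SD, n = 3; edgeR adjusted p = 1.58e-10 and 1.72e-07). Both kept their call and direction under all 16 refits tried. Gigyf2 rose 1.10-fold and Eif4e2, whose product is the cap-binding partner of GIGYF2 in translational repression, fell to 0.915 times WT (edgeR adjusted p = 2.09e-05 and 3.28e-05). The Gigyf2 call was lost with length and GC offsets (edgeR adjusted p = 0.813). Nbdy, which encodes a P-body microprotein that binds EDC4, rose by 0.19 on the log2 scale, and Eif4enif1, which encodes the DDX6 partner 4E-T, had a log2 fold change of 0.048 and did not pass.

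Of 5 other cap and 5′ end enzymes, Dcps rose and Nudt3 and Xrn2 fell, with a median of 0.0087; without WT replicate 1, 2 were higher and 0 lower, and without WT replicate 2, 1 was lower. Dcps, the scavenger of cap remnants, went from 19.6 ± 0.761 to 22.5 ± 1.41 CPM (SD, n = 3; edgeR adjusted p = 0.00231). Xrn2, the nuclear counterpart of Xrn1, reached 0.954 times WT and, like Nudt3 at 0.938 times, did not pass under upper-quartile scaling (edgeR adjusted p = 0.620 and 0.251).

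Of 7 tested genes of microRNA silencing, which feeds targets into deadenylation and decapping, 5 were higher and 1 lower, with a median of 0.11. Ago1 rose 1.52-fold, from 42.6 ± 0.841 to 64.8 ± 1.69 CPM, and the helicase gene Mov10 1.18-fold, from 107 ± 2.81 to 127 ± 2.07 CPM (SD, n = 3; edgeR adjusted p = 2.56e-19 and 1.23e-10). Tnrc6a, which encodes a GW182 scaffold, fell to 0.922 times WT (edgeR adjusted p = 6.30e-05). The list's direction depended on the scaling: with length and GC offsets 2 were higher and 4 lower, and Ago2 and Tnrc6b turned from higher to lower.

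Of 17 tested genes on the list of the exosome and SKI complexes, which degrade RNA from the other end, 3 were higher and 6 lower, with a median of -0.032. The list also holds genes outside these complexes, such as Dis3l2, called higher, and Pelo, called lower. The SKI genes Skic2 and Skic3 rose 1.17-fold each (edgeR adjusted p = 1.21e-07 and 4.44e-07). Skic8, also a SKI gene, went the other way, to 0.905 times WT (edgeR adjusted p = 0.00244). It did not pass under upper-quartile scaling (edgeR adjusted p = 0.0576). The exosome core genes Exosc8 and Exosc2 fell to 0.811 and 0.871 times WT (edgeR adjusted p = 1.12e-09 and 1.55e-06). Of 13 stress granule genes, 3 were higher and 3 lower, with a median of -0.042; with length and GC offsets 2 were higher and 9 lower, and without WT replicate 2, 5 were lower. Tia1 rose 1.53-fold, from 31.9 ± 2.16 to 48.8 ± 2.10 CPM, and G3bp1, which encodes the main nucleator of these granules, fell from 598 ± 5.81 to 522 ± 7.28 CPM (SD, n = 3; edgeR adjusted p = 1.51e-15 and 3.54e-11). Its paralog G3bp2 fell to 0.892 times WT, and Atxn2l rose 1.08-fold, a call lost with length and GC offsets (edgeR adjusted p = 0.678).

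**Figure D4:**
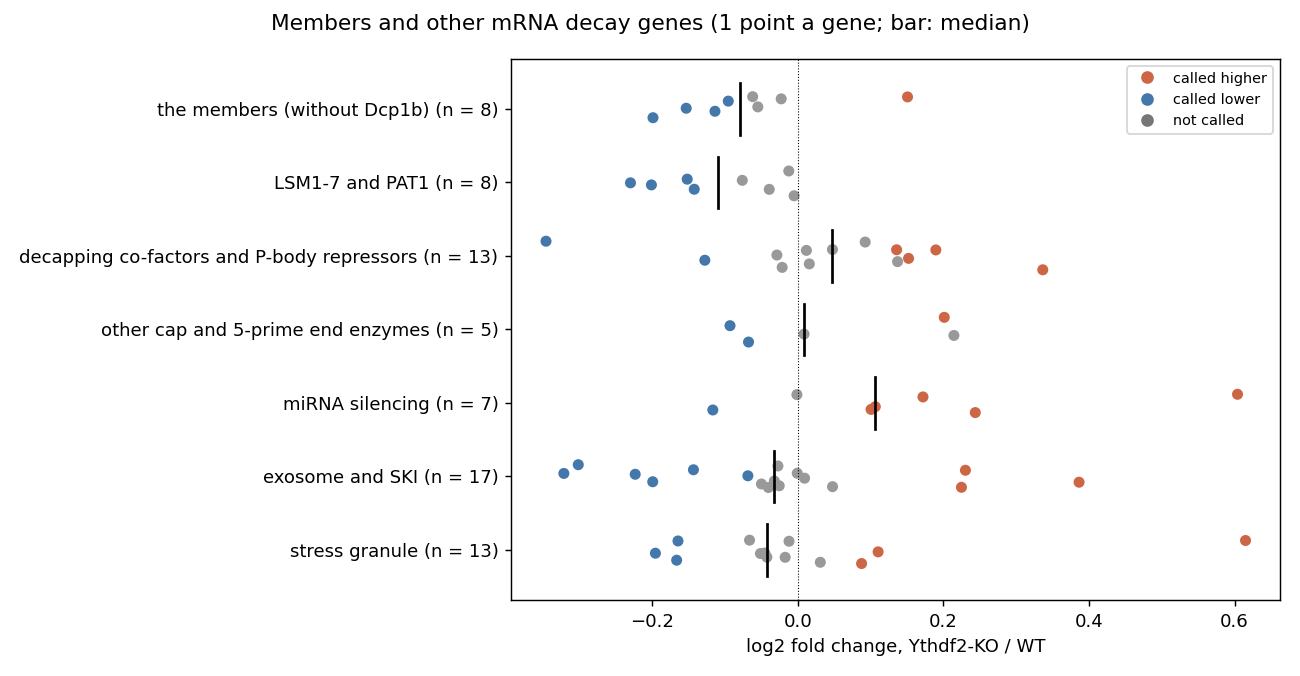
Log2 fold change of the members (without Dcp1b, at 2.79) and of the 63 tested genes of the 6 pathway lists, 1 point a gene, with vertical bars at the medians; points are spread vertically at random. Medians lie between -0.11 (LSM1-to-LSM7 and PAT1) and 0.11 (microRNA silencing), and Ago1 and Tia1 are the points farthest to the right.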

How the data were processed

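The deposited values are raw counts, whole numbers for each symbol. The submitters' processing notes name fastp 0.23.2, HISAT2 2.2.1, GRCm39 and featureCounts 2.0.6; the strand and multi-mapping settings used by the authors were not stated. Counts were analysed with edgeR 4.0.16 in R 4.3.3: filterByExpr, TMM scaling, a robust quasi-likelihood fit over all 6 libraries by genotype, and Benjamini-Hochberg adjustment over the 17718 genes tested, called at an adjusted p under 0.05. The fit was tested on simulated data. CPM are counts over TMM-scaled library sizes. SE is the fold change over the root of the F statistic. Paralog shares were tested over samples by exact permutation. Transcript lengths, GC content and overlaps came from GENCODE M21 (GRCm38), joined by symbol, with lengths for 16758 genes tested. Alternatives were RLE and upper-quartile scaling, TMM without the 20 most abundant and mitochondrial genes, no filter or a mean of 5 CPM, a replicate block, leaving out libraries, DESeq2 1.42.0, limma-voom (limma 3.58.1), an adjusted p under 0.01, and length and GC offsets. Members and lists were chosen with earlier results of these data known. Named genes were every member, Ythdf2, the 2 called genes of smallest adjusted p per list and direction, 3 genes most like each of 2 members, and Tyr, Dct, Mlana, Ptprc and Pecam1 among markers; others were named after their values were seen. Figures used Python 3.11.15 and matplotlib 3.10.9. Intervals of counts cover counting error only. One item among the marker genes is not reported here.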

Additional observations from a re-analysis of the deposited data

How the results depend on the processing

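Ddx6, Edc3, Lsm14b and Ythdf2 kept their direction and call in all 16 refits, and Dcp1b in the 15 in which it was tested. Members called lower numbered 2 with upper-quartile scaling and 7 with length and GC offsets, against 4. Over all genes 20.3% and 31.6% were called lower, against 25.8%. A filter at 5 CPM, which removes Dcp1b, left 1 member called higher, against 2. With that filter 32.5% of all genes were called higher, against 24.1%. Of the calls over all genes, 48.3% were higher after TMM, 59.2% after upper-quartile scaling and 37.8% with length and GC offsets. With these offsets 33 of the 63 tested context-list genes were called lower, beside 31.6% of all genes. The log2 fold change of Xrn1 changed sign to 0.031 with upper-quartile scaling and to 0.0014 with the 5 CPM filter. It ranged from -0.032 to 0.0047 when 1 library was left out. Xrn1 passed in none of these refits, and the cause was not tested. On raw counts the Dcp1b share differed by 2.53 percentage points, as no length enters. Same-numbered WT and Ythdf2-KO libraries did not deviate together (r = 0.050, -0.094 and -0.13 over 10508 genes). For libraries of different numbers r ran from -0.071 to 0.15. With 3 libraries a side this check cannot decide whether equal numbers share a culture or day, which the labels do not state. With a replicate block 2 members were higher and 4 lower, and over all genes 4132 were higher and 4409 lower. A count of 1 equals 0.0144 to 0.0180 CPM, which limits Dcp1b alone among the members.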
